A study of Mus musculus with 32 samples.

Results

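The 10 genes described here encode neutrophil granule proteins, the alarmins S100a8 and S100a9 and the surface marker Ly6g: S100a8, S100a9, Ngp, Camp, Ltf, Elane, Mpo, Mmp8, Retnlg and Ly6g. They were selected by the gene name on the array, among 55681 probes. All 10 were found, through 12 probes, and all 10 were among the 21073 genes left by the filter on dim probes. The set was chosen because S100a8 was among the strongest falls in M+Fc-GLP-1 compared with MCD mice after partial hepatectomy (PH), so that contrast, and every contrast that uses either of those groups after PH, is described below without a test.

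Liver RNA of male C57/BL6 mice, 8 weeks old at the start of the diets, was hybridized to 32 arrays, 1 array for each of 4 samples in 8 groups. C mice ate a standard chow diet and MCD mice a methionine/choline-deficient diet for 3 weeks, both with saline injections. Mice of the C+Fc-GLP-1 group and of the M+Fc-GLP-1 group ate the same diets and received a long-acting GLP-1 receptor agonist, Fc-GLP-1, for the last 2 weeks. Livers were taken at PH, which removed 70% of the liver, or 2 weeks later under the same diet and treatment. Part of the labels names the drug otherwise, as an agonist of both GLP1R and GCGR given at 4.4 mg/kg/day. For C+Fc-GLP-1 mice after PH, the source label names a dual agonist as the treatment after PH. That of M+Fc-GLP-1 mice after PH states the same treatment as before. The groups keep the names of the paper here. The labels call the samples biological replicates and do not state if a mouse gave tissue at both times. Only mice that survived PH could be sampled afterwards, and the MCD diet gives a lean steatohepatitis without obesity. Between 36.3% and 69.2% of probes on an array were well above background. Arrays of C and MCD mice before PH shared 1 slide, those of both treated groups before PH another slide, and those of both treated groups after PH a further slide. C and MCD mice after PH were each on a slide of their own, read on another scanner than the rest.

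Neutrophils build their granules in the bone marrow in a fixed order. Azurophil granule proteins, such as the peroxidase Mpo and the serine protease Elane, are transcribed in promyelocytes. Specific granule proteins, such as the iron binder Ltf (lactoferrin), the antimicrobial cathelicidin Camp and the cystatin-like Ngp, follow in myelocytes and metamyelocytes. The collagenase Mmp8 and the resistin-like Retnlg are made late, and S100a8 and S100a9, which pair to form calprotectin, remain abundant as mRNA in mature neutrophils and are also made by monocytes. Ly6g is a membrane protein used to label mouse neutrophils. In a whole liver, fewer cells of a type and less RNA per cell cannot be told apart.

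Each gene was read by 60-base probes, and the probes of S100a8, Ngp, Ltf and Ly6g are shown because the results below turn on what they can read. Their positions in the file headers are on mm9, at chr3:90473778-90473837, chr9:110324266-110324814, chr9:110942873-110942932 and chr15:74989023-74989082. The Ngp position covers more bases than the probe holds. Ly6g lies in a family of near-identical Ly6 genes, so its signal may include paralogs and is uncertain.
S100a8 probe: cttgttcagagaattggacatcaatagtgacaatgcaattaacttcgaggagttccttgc
Ngp probe: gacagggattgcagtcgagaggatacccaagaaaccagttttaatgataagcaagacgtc
Ltf probe: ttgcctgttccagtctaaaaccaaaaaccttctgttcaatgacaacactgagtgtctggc
Ly6g probe: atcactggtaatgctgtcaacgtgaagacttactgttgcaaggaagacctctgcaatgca

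S100a8 and S100a9 are neighbours on chromosome 3 of GRCm38.p6 (90669071 to 90670034 and 90692630 to 90695721). Ngp, Camp, Ltf and Mmp8 lie on chromosome 9, Elane on 10, Mpo on 11, Ly6g on 15 and Retnlg on 16. The 250 bases before the RefSeq start are shown for the alarmin pair and for the specific granule genes Ngp and Ltf, since each pair varied together across the arrays. They span chr3:90668821-90669070 (plus strand), chr3:90695722-90695971 (minus strand), chr9:110419558-110419807 (plus strand) and chr9:111019042-111019291 (plus strand) of GRCm38.p6, read 5′ to 3′ on the strand of the gene. Capitals mark matches on either strand to 3 motifs, which can touch or overlap. The C/EBP-like motif was TTNNGCAA. The PU.1-like motif, which myeloid genes often hold, was GAGGAA. The other motif, the TATA box that lies before the start of many genes, was TATAAA.
S100a8 promoter: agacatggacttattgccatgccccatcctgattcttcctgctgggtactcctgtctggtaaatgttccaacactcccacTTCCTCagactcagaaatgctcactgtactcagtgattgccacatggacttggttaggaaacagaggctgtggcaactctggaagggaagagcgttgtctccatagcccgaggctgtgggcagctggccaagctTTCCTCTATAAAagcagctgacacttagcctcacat
S100a9 promoter: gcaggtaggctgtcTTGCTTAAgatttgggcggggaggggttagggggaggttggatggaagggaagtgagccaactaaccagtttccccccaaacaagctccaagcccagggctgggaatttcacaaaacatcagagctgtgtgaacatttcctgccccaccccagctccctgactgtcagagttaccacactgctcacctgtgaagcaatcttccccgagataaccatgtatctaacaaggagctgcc
Ngp promoter: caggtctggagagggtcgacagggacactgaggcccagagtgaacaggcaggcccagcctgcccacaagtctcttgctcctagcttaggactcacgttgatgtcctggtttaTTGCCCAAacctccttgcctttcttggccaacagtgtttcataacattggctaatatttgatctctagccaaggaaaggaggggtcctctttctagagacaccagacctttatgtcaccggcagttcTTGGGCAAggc
Ltf promoter: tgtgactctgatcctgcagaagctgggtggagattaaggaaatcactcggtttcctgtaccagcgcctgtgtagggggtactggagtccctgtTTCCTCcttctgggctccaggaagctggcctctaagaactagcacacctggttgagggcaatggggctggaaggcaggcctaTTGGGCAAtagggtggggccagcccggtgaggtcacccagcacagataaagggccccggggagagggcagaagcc
The C/EBP-like letters were present before 6 of the 10 genes and in 9.57% of all 32817 promoters of the same length. The PU.1-like letters were present before 6 of the 10 genes, compared with 23.3% of promoters, and the TATA box before 2, compared with 12.4%. A match is a description of these letters and not a binding site.

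Before PH, the mRNA of both alarmins was higher in MCD than in C mice. Levels are log2 signals minus the 75th percentile of the array, so 0 is that percentile. S100a8 read -3.29, -2.24, -3.17 and -2.38 in C mice and 0.63, -0.84, -0.01 and 1.35 in MCD mice. Every MCD array lay above every C array, and the difference of 3.06 (SE 0.67, limma, adjusted p = 0.0014) is an 8.32-fold higher level. S100a9 read 0.85, 0.76, 0.91 and 0.54 in C mice and 3.83, 1.66, 3.68 and 4.18 in MCD mice, also without overlap. Its difference was 2.57 (SE 0.61, limma, adjusted p = 0.0026).

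Mpo, the azurophil peroxidase, was kept only through the MCD groups before and after PH, so its probe was bound to be bright there. It exceeded background on 0 of 4 C arrays and on all 4 MCD arrays before PH, which read -1.14, -4.04, -1.50 and -2.79. The level was at least 4.98-fold higher in MCD mice, on the scale where a dim group is set to the background floor (fitted log2 difference 2.93, SE 1.09, limma, adjusted p = 0.046). That call sat at the threshold and was lost without any 1 of 7 of the 8 arrays, with adjusted p from 0.054 to 0.12. With the replicate number as a block it was 0.056, and with normexp background correction and quantile normalization the difference was 1.25 (adjusted p = 0.17 in limma). The other Mpo probe was above background on only 8 of 32 arrays and differed by 0.66.

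The remaining 7 members did not pass the test in this comparison, although 5 of them had intervals reaching above 1. Ltf read -1.34, -4.92, -2.26 and -3.06 in MCD mice, 3 of them above background, and was above background on no C array, a level at least 2.57-fold higher (adjusted p = 0.16 with limma). Camp ranged from -3.25 to 1.56 in MCD mice and from -1.28 to -0.58 in C mice. The MCD mouse of replicate 2 had the lowest Camp, Ltf, Mpo, Ngp, Mmp8 and Retnlg of its group, and also the lowest S100a8 and S100a9. Ngp, above background on 1 of 4 C and 3 of 4 MCD arrays, had a fitted log2 difference with a 95% interval of -0.51 to 3.52, and Retnlg differed by 1.25 (-0.03 to 2.53). Mmp8 was above background on 1 array of each group, and Elane and Ly6g differed by -0.28 and -0.31. In all, S100a8, S100a9 and Mpo passed the test, 3 of 10 and each higher in MCD mice, compared with 26.4% of all tested genes. Mpo was kept only through MCD groups, so its call adds nothing to that count, which lies near the share of all genes. The members' median difference was 1.38, against -0.13 over all genes.

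Fc-GLP-1 mice on the MCD diet did not have the raised alarmin levels. Before PH, S100a8 read -4.09, -2.29, -2.88 and -1.63 in M+Fc-GLP-1 mice, the first 2 not well above background, and lay below every MCD array. The difference from MCD mice was -3.01 (SE 0.67, limma, adjusted p = 0.0082), a level 0.124 times as high. S100a9 read 0.80, 1.07, 0.12 and 1.14, again below every MCD array, with a difference of -2.55 (SE 0.61, limma, adjusted p = 0.012). With normexp background correction and quantile normalization the S100a8 difference was smaller, -1.82, and still past the threshold (limma, adjusted p = 0.042).

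Ly6g differed the other way. It read 0.02, 0.10, -0.13 and 0.50 in M+Fc-GLP-1 mice and -1.22, -1.22, -0.70 and -0.16 in MCD mice, with no overlap and a difference of 0.95 (SE 0.29, limma, adjusted p = 0.043). That call was lost on leaving out any 1 of 7 of the 8 arrays (adjusted p from 0.057 to 0.14), with median centring (0.17), and with the authors' values, where the difference was 0.40 (0.38). Mpo was above background on no M+Fc-GLP-1 array. Its level was at least 3.41-fold lower there and did not pass the test (limma, adjusted p = 0.13). The other Mpo probe, above background on 1 of 4 MCD arrays and no M+Fc-GLP-1 array, differed by 0.15, the other way. Camp and Ltf differed by -2.19 and -2.08, with adjusted p of 0.13 and 0.20. In all, 3 of 10 members passed the test, 2 lower and 1 higher, compared with 7.22% of all genes, and their median difference was -1.90 against 0.10 over all genes. These groups were on different slides, so the part of the slide in these values cannot be told apart from that of the treatment.

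Within a slide, the diet comparison came out differently in untreated and treated mice. Among Fc-GLP-1-treated mice before PH, S100a8 read -1.44, 0.12, -2.68 and -1.40 on chow and differed by -1.37 on the MCD diet (95% interval -2.75 to 0.00, limma, adjusted p = 0.20). S100a9, at 1.17, 2.32, 0.31 and 2.29 on chow, differed by -0.74 (-1.98 to 0.51). The groups overlapped for both genes. None of the 10 members passed the test, compared with 10.4% of all genes; 0 of them had an unadjusted p under 0.05 in limma.

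The diet by Fc-GLP-1 interaction before PH, in which additive slide effects cancel, was -4.43 for S100a8 (SE 0.95, limma, adjusted p = 0.0090) and -3.31 for S100a9 (SE 0.86, adjusted p = 0.024). No other member passed, and 2 of 10 compares with 6.15% of all genes. Mpo, at -2.76 (-5.91 to 0.40), and Camp, at -1.32 (-3.93 to 1.30), had wide intervals. The S100a8 interaction was -2.87 with normexp and quantile normalization, where it did not pass (adjusted p = 0.057). Without the MCD array of replicate 1 the S100a9 interaction was -3.15 and did not pass (0.052).

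Fc-GLP-1 alone moved none of the 10 members past the threshold on chow before PH, compared with 2.11% of all genes; 1 member, S100a8, had an unadjusted p under 0.05 in limma. S100a8 differed by 1.42 between C+Fc-GLP-1 and C mice (95% interval 0.04 to 2.79, adjusted p = 0.26), with overlapping arrays. Camp lay lower on every C+Fc-GLP-1 array than on every C array, with a difference of -0.87 (-2.72 to 0.97). On this brightest probe Camp was the 1 of 10 members without overlap, compared with 9.96% of all genes. The other kept Camp probe differed by -0.60, with overlapping arrays. The 2 groups were on different slides, so slide and treatment cannot be told apart. Ngp, Ltf and Mpo were above background on no C+Fc-GLP-1 array before PH.

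**Figure D1:**
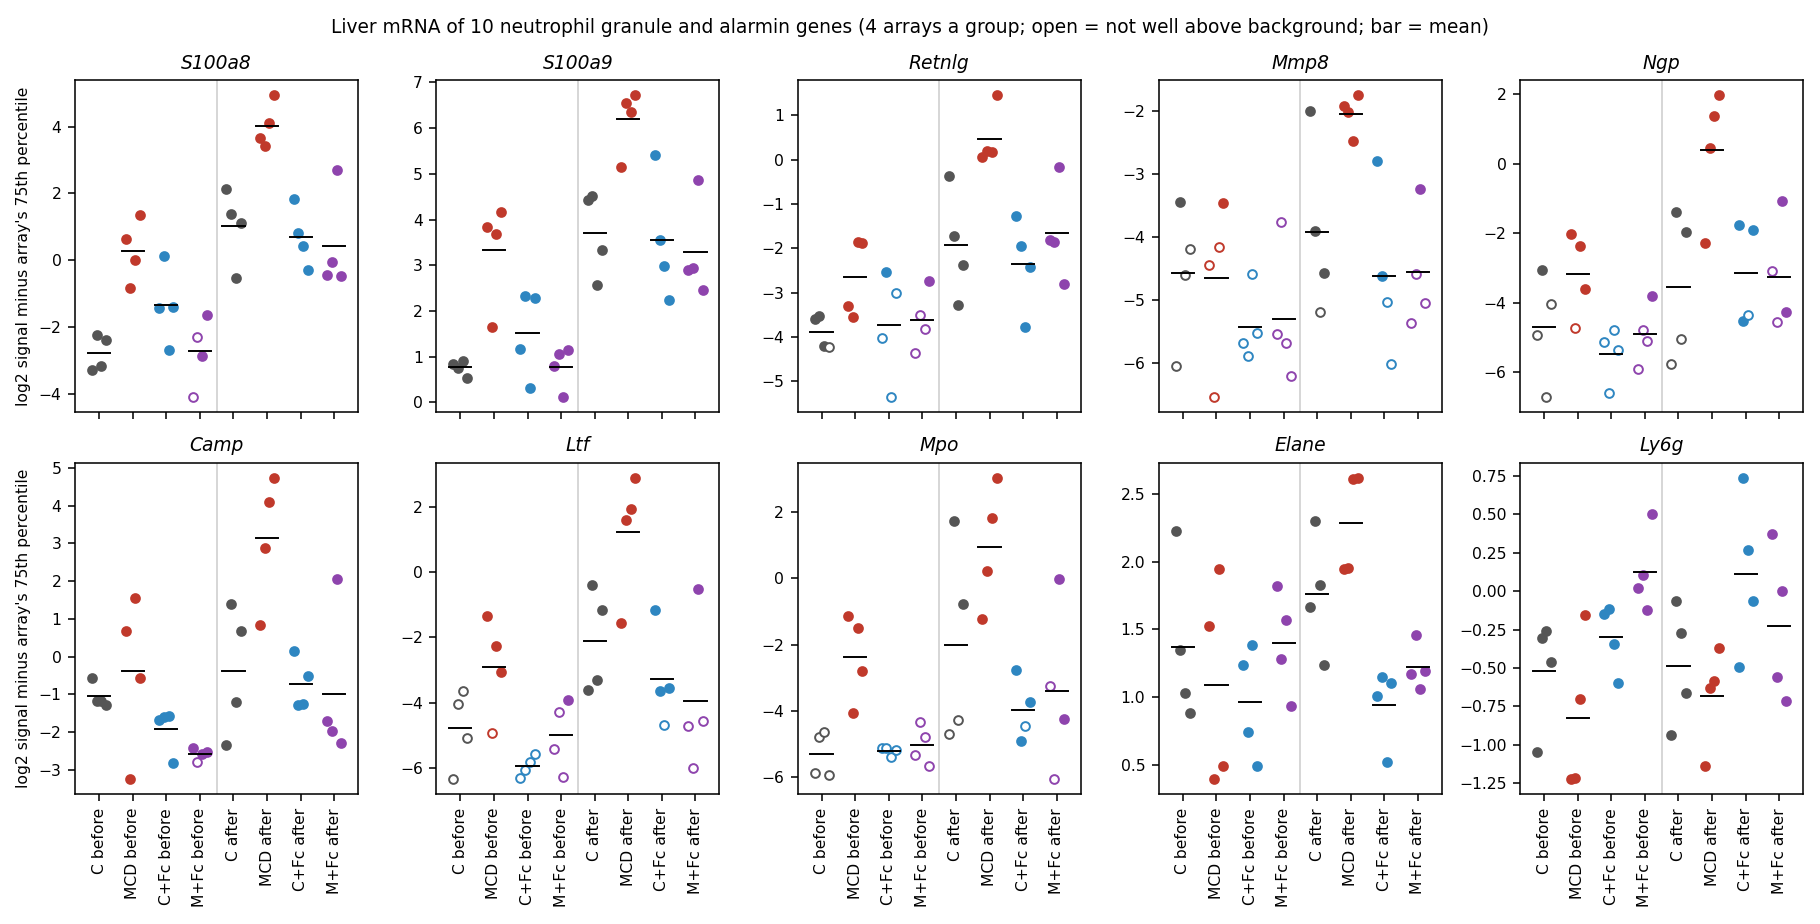
Each point is the level of 1 gene on 1 array, as log2 signal minus the array's 75th percentile (vertical axis), in the 8 groups before and after PH (horizontal axis, Fc for Fc-GLP-1); bars are means of 4 arrays and open points are not well above background. S100a8 and S100a9 are lowest in C and M+Fc-GLP-1 mice before PH and highest in MCD mice after PH, while Elane and Ly6g vary little.

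**Figure D2:**
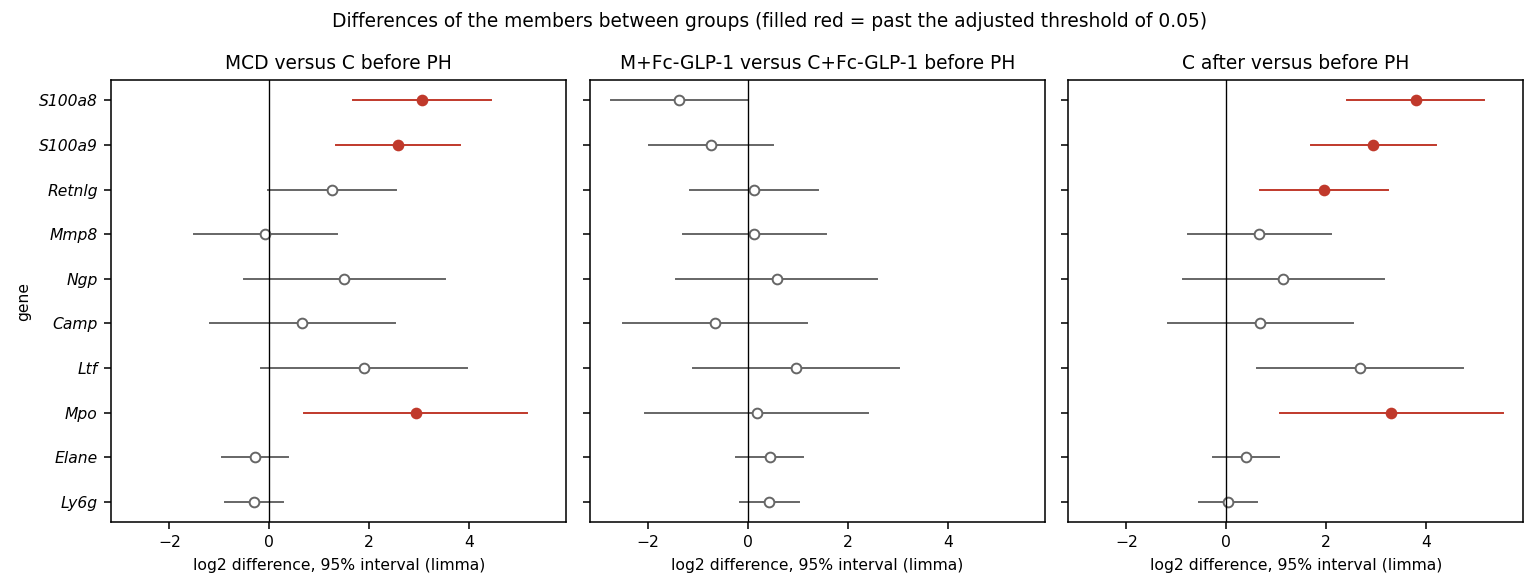
Points are log2 differences of the 10 genes (vertical axis) with 95% intervals from limma (horizontal axis), filled red where the adjusted p passed 0.05. S100a8 and S100a9 differ by 3.06 and 2.57 between MCD and C mice before PH, and no gene passes between the 2 treated groups.

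At 2 weeks after PH, chow-fed mice had higher alarmin levels than chow-fed mice at PH. S100a8 read 2.13, 1.39, -0.54 and 1.10 in C mice after PH, all above the 4 C arrays before PH, a difference of 3.79 (SE 0.67, limma, adjusted p = 6.0e-04). S100a9 read 4.43, 4.51, 2.57 and 3.33, also without overlap, a difference of 2.95 (SE 0.61, adjusted p = 0.0021). Retnlg read -0.37, -1.72, -3.28 and -2.37 against -3.60, -3.53, -4.21 and -4.22, a difference of 1.96 (SE 0.63, limma, adjusted p = 0.035). Mpo was above background on 2 of 4 arrays after PH and on none before, with overlapping arrays and a level at least 6.41-fold higher (fitted difference 3.30, SE 1.09, limma, adjusted p = 0.042). Ltf, above background on all 4 arrays after PH and none before, was at least 4.41-fold higher and did not pass the test (adjusted p = 0.072). It was kept only through C and MCD mice after PH, so its probe was bound to be bright after PH in such a group.

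In this comparison 4 of 10 members passed the test, all higher after PH, compared with 14% of all genes, and the median difference was 1.55 against -0.08. S100a8 and S100a9 alone passed, 2 of 10, without C replicate 1, 3 or 4 before PH, without C replicate 2 after PH, without the filter on dim probes, and in a fit of these 2 groups alone. The Mpo difference was 2.05 without C replicate 2 after PH, and 1.58 with normexp and quantile normalization. In that setting Retnlg differed by 0.73, and neither passed. With the replicate number as a block Mpo did not pass either. Of the 10 members, 4 did not overlap between C mice after and before PH, Ltf among them, compared with 17.9% of all genes. The 2 groups were on different slides and scanners, so slide and time cannot be told apart here.

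C mice after PH were not alike in their granule genes. Replicates 2 and 4 read 1.74 and -0.78 for Mpo, while replicates 1 and 3 read -4.70 and -4.27, not above background. Ltf read -0.40 and -1.17 on the same 2 arrays (replicates 2 and 4) and -3.60 and -3.30 on the others. Ngp read -1.38 and -1.98 there and -5.76 and -5.04 on the others, and Camp lay at 0.68 or more there and at -1.21 or less on the others. Mpo, Ltf, Ngp and Camp thus split these 4 livers into a high and a low pair. S100a8, Retnlg and Mmp8 did not follow that split, since replicate 1 was the highest array for each of them. Elane did not follow it either: it read 1.67, 2.30, 1.83 and 1.24.

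C+Fc-GLP-1 mice after PH had S100a8 levels of 1.83, 0.81, 0.41 and -0.30 and S100a9 levels of 5.42, 3.56, 2.99 and 2.25. These overlapped those of C mice after PH, which were on another slide and scanner. The differences were -0.33 (-1.71 to 1.04) and -0.16 (-1.40 to 1.09). None of the 10 members passed that test, compared with 2.06% of all genes; Elane (-0.81) and Ly6g (0.60) had an unadjusted p under 0.05 in limma. Replicate 1 was the highest array of this group for S100a8, S100a9, Ltf, Mpo, Mmp8, Camp, Ngp and Retnlg.

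C+Fc-GLP-1 mice after compared with before PH differed by 2.04 for S100a8 (0.67 to 3.42, limma, adjusted p = 0.14) and 2.03 for S100a9 (0.79 to 3.28, adjusted p = 0.099). The source label of the group after PH names a dual agonist, so the drug may not have been the same at both times. Ngp, Ltf and Mpo went from 0 of 4 arrays above background to 3 of 4 each, at least 2.70-fold, 2.47-fold and 1.53-fold higher. The other Mpo probe, above background on no array of either group, differed by -0.65. None of the 10 passed, compared with 0.835% of all genes, while 5 had an unadjusted p under 0.05 in limma, and 1 (S100a9) passed with normexp and quantile normalization. The 2 time points were on different slides.

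The highest levels of 9 of the 10 members were those of MCD mice after PH. The values that follow include the arrays on which S100a8 was chosen and are given as a description. MCD and M+Fc-GLP-1 mice after PH were on different slides and scanners, so slide, scanner and treatment cannot be told apart. S100a8 read 3.65, 3.41, 4.10 and 4.94 in MCD mice and -0.44, -0.06, 2.70 and -0.46 in M+Fc-GLP-1 mice after PH, and S100a9 read 5.15, 6.55, 6.35 and 6.72 against 2.90, 2.95, 4.86 and 2.45. Camp read 0.83, 2.89, 4.10 and 4.74 against -1.70, -1.98, 2.06 and -2.29, and Ltf -1.56, 1.60, 1.94 and 2.89 against -4.71, -6.02, -0.51 and -4.58. Mpo read -1.24, 0.21, 1.80 and 3.03 in MCD mice and -3.25, -6.06, -0.03 and -4.25 in M+Fc-GLP-1 mice. Mmp8, the late collagenase, read -1.92, -2.02, -2.47 and -1.75 against -5.37, -4.58, -3.23 and -5.05, and Retnlg 0.06, 0.20, 0.18 and 1.45 against -1.81, -1.85, -0.17 and -2.81. S100a8, S100a9, Mmp8, Retnlg and Elane did not overlap between these groups, as was so for 14.3% of all genes. Ngp, Camp, Ltf, Mpo and Ly6g did overlap. Nothing is read from this on the arrays that chose the set. The M+Fc-GLP-1 mouse of replicate 3 was the highest of its group for S100a8, S100a9, Ngp, Camp, Ltf, Mpo, Mmp8 and Retnlg. The MCD mouse of replicate 1 was the lowest of its group for Ngp, Camp, Ltf and Mpo, and for S100a9.

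Relative to MCD mice after PH, on another slide and scanner, M+Fc-GLP-1 mice differed by -3.59 (SE 0.67) for S100a8 and -2.90 (0.61) for S100a9. Ngp differed by -3.63 (0.98), Camp by -4.12 (0.90), Ltf by -5.18 (1.01) and Mpo by -4.35 (1.09). Mmp8, Retnlg and Elane differed by -2.52 (0.70), -2.13 (0.63) and -1.06 (0.32), and Ly6g by 0.46 (0.29). In M+Fc-GLP-1 mice Ltf and Mmp8 were above background on 1 of 4 arrays and Ngp and Mpo on 2 of 4, so these fitted differences rest in part on signals at background. They were smaller with normexp and quantile normalization for Ltf (-3.01), Mmp8 (-0.89) and Mpo (-2.80), and with the authors' values for Ltf (-3.21) and Mmp8 (-1.08). In the fit 9 of 10 lay past the threshold, as did 6.5% of all genes. Nothing is read from that count, since these arrays chose the set and Ngp and Mmp8 were kept only through MCD mice after PH. Of the members that read lower in M+Fc-GLP-1 mice, Elane had the smallest difference, and Ly6g was the 1 member that read higher. Without M+Fc-GLP-1 replicate 3 the S100a8 difference was -4.34, and Ltf was above background on none of the 3 arrays left.

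The other contrasts with these groups are given in the same way. MCD mice compared with C mice after PH, on different slides, differed by 3.01 for S100a8, 3.92 for Ngp, 3.51 for Camp and 3.34 for Ltf, and 6 of 10 members lay past the threshold against 12.1% of all genes. Both treated groups after PH, on 1 slide, differed by -0.25 for S100a8 and -0.26 for S100a9, and 0 of 10 lay past it against 12.8%. MCD mice after compared with before PH differed by 3.74 for S100a8, 4.12 for Ltf and 1.19 for Elane, with 8 of 10 past it against 9.43%. M+Fc-GLP-1 mice after compared with before PH differed by 3.16 for S100a8 and 2.51 for S100a9, with 2 of 10 past it against 1.71%. In both contrasts over time the groups compared were on different slides. The contrasts share groups and are not independent of each other. Nothing is read from their counts, for the reasons given for the contrast that chose the set.

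The members fell into sets that varied together, as formed after the values were seen. Over 32 arrays, S100a8 and S100a9 had a Pearson r of 0.96 (Spearman 0.96) and S100a8 and Retnlg 0.92 (0.89). After subtracting each group's mean, r was 0.79 for S100a8 with S100a9 and 0.81 with Retnlg. Among Ngp, Camp, Ltf and Mpo the 6 within-group values ran from 0.77 to 0.85, with a median of 0.80. Among S100a8, S100a9, Retnlg and Mmp8 they ran from 0.46 to 0.81, median 0.70. Between these 2 sets the 16 values ran from 0.18 to 0.68, median 0.40. Arrays share slides and scaling, so these values are a description with no test. Leaving out the 2 arrays with the most extreme S100a8, its r with S100a9 was 0.95 and with Mpo 0.70, from 0.79.

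Elane and Ly6g differed from the other 8 in their narrow range and low median within-group r. Both were well above background on all 32 arrays, as was S100a9, whereas Mpo, the other azurophil gene, was so on 15. Elane ranged from 0.39 to 2.62 and Ly6g from -1.22 to 0.74 over all arrays. The within-group r of Elane with the other 9 had a median of 0.07 and that of Ly6g 0.19. Without subtracting group means, the medians were 0.46 for Elane and -0.19 for Ly6g. Elane, like the other 8, read highest in MCD mice after PH. What else these probes may read was not tested.

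**Figure D3:**
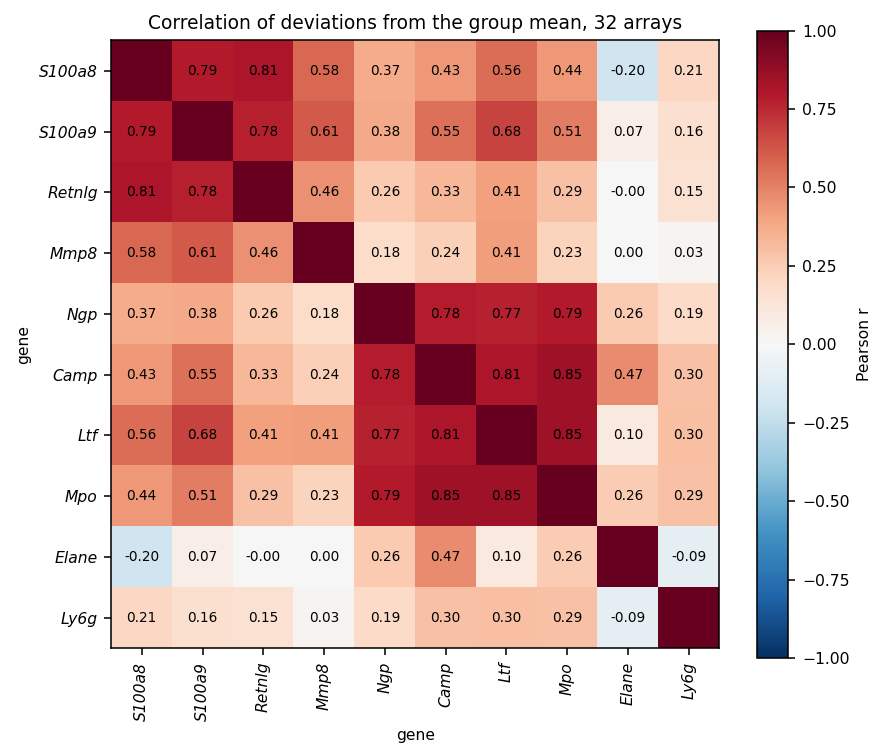
Colours and printed values give the Pearson r between the deviations of 2 genes (both axes) from their group means over 32 arrays. Ngp, Camp, Ltf and Mpo form a block of 0.77 to 0.85, S100a8 with S100a9 reaches 0.79, and Elane and Ly6g reach at most 0.47 with any other gene.

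**Figure D4:**
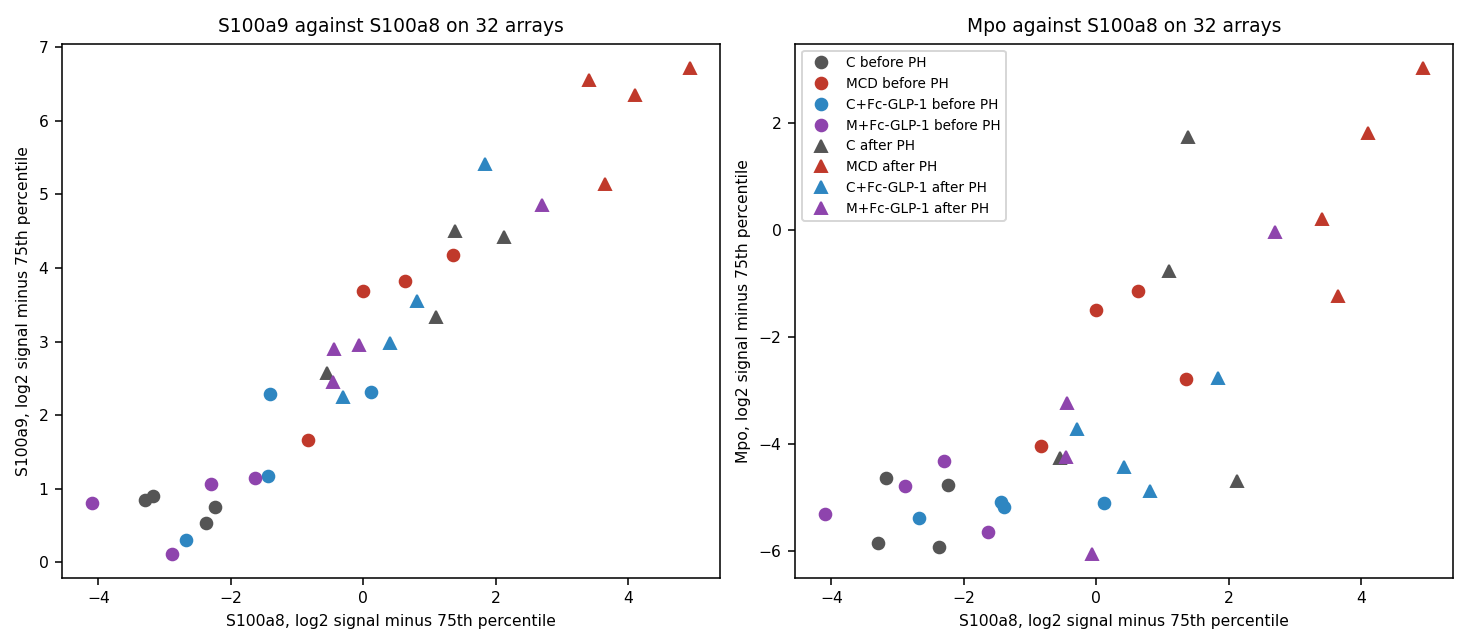
Each point is an array, with S100a8 on the horizontal axis and S100a9 (left) or Mpo (right) on the vertical axis, all as log2 signal minus the 75th percentile; colours are groups, circles before and triangles after PH. S100a9 follows S100a8 closely (r = 0.96), while Mpo lies near its background in many arrays and spreads widely above it (r = 0.79).

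Apart from the 10 members themselves, the tested genes most like S100a8 over 32 arrays were Ifitm6, Orm3, Tor3a, Pira11 and F13a1, with r from 0.87 to 0.91. Orm3 encodes an orosomucoid, an acute phase protein, Pira11 a paired immunoglobulin-like receptor and F13a1 the A subunit of coagulation factor XIII, which monocytes and macrophages make. Without the 8 arrays of the contrast that chose the set, r was 0.81 to 0.91. For Ngp, again leaving out the members, the features most alike were Cxcl13, a B cell chemokine (r = 0.84), Ctsg, the azurophil protease cathepsin G (0.84), Rpap3 (0.75) and 2 probes with no gene symbol. Without the same 8 arrays these were lower, at 0.655 for Cxcl13, 0.61 for Ctsg and 0.41 for Rpap3. Ngp was kept only through MCD mice after PH, which are among those arrays. Ctsg had a within-group r of 0.73 with Ngp, and Rpap3 one of 0.28.

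The other lists are described by their counts, to be set against the 26.4% of all genes called for the MCD diet before PH, 6.15% for the interaction and 14% for C mice after PH. The median difference of all genes was -0.13, 0.15 and -0.08 in these comparisons. Of 11 tested genes of other granule proteins, 4 rose and 1 fell with the MCD diet before PH, with a median difference of 0.68 against -0.13 over all genes. Lcn2, the siderophore binder of specific granules that hepatocytes also secrete, rose by 5.08, Chil3, a chitinase-like protein, by 4.27 and the protease Adam8 by 2.76. The interaction was lower for 3 of the 11, Lcn2 (-5.65), Chil3 (-4.16) and the lysozyme Lyz2 (-2.96), with a median of -1.82 against 0.15. After PH in C mice 6 of 11 rose, among them Chil3 by 4.88, Lcn2 by 4.36 and Prtn3, an azurophil protease, by 3.74, with a median of 2.05 against -0.08.

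The NADPH oxidase makes the oxidants that Mpo uses. Of its 6 subunits, 3 rose with the MCD diet before PH (among them Ncf4 by 1.56 and Cyba by 1.21), with a median of 1.17 against -0.13 over all genes and 3 of 6 against 26.4% called. The interaction was lower for 3 of 6, among them Ncf4 at -2.51 and Ncf1 at -1.96, and all 6 rose after PH in C mice, Ncf4 by 2.01. Of 19 receptor and adhesion genes, 8 rose and 1 fell with the diet (26.4% of all genes called), with a median of 1.05. The C-type lectins Clec4e and Clec4d rose by 4.01 and 2.88 and the decoy receptor Il1r2 by 2.35, while Itgam, which encodes CD11b, fell by 1.56 and is named after its value was seen. The interaction was lower for 6 of 19, among them Clec4d (-3.09) and Fcgr4 (-2.63).

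Of 8 genes of neutrophil attractants and growth factors, Ccl4 and Ccl3 rose with the MCD diet, by 3.21 and 2.68, a share close to the 26.4% of all genes called. The interaction was lower for 1, the cytokine Il1b (-3.42), which also fell by 2.66 in M+Fc-GLP-1 compared with MCD mice. Of 6 transcription factors of the lineage, Cebpd (1.95) and Runx1 (1.75) rose with the diet and Cebpa fell by 0.99, while Cebpe, needed for specific granules, fell by 1.01 in M+Fc-GLP-1 compared with MCD mice. Of 8 protease inhibitors, 2 rose and 2 fell with the diet, with a median of 0.59. Slpi, an inhibitor of neutrophil elastase, rose by 2.89, and Serpinb1a, an inhibitor of neutrophil serine proteases, fell by 2.44. Among 11 other alarmins and their receptors, 6 rose with the diet, including Cd36 by 2.21, S100a11 by 2.07 and Il33 by 2.03. Of 8 genes of myeloid precursors, 3 rose with the diet, where 26.4% of all genes were called, and 3 after PH in C mice, where 14% were. These were Top2a (3.36 and 3.96) and Mki67 (2.99 and 2.34), which dividing hepatocytes also make, with Flt3 (1.55) in the first and Prtn3 in the second.

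Markers of monocytes and macrophages moved in the same direction as the alarmins in the comparisons given next, while their median differences were small in some others. Of 11 tested genes, 7 rose with the MCD diet before PH, the interaction was lower for 4, and 10 rose after PH in C mice, against 26.4%, 6.15% and 14% of all genes called. Their summed linear level ran from 48.0 to 83.6 on C arrays, 97.8 to 241.5 on MCD arrays, 72.1 to 113.1 on C+Fc-GLP-1 arrays and 46.5 to 101.2 on M+Fc-GLP-1 arrays before PH. Vsig4, a Kupffer cell receptor, rose by 2.30 with the diet, Cx3cr1 by 2.16 and Cd68 by 1.96. Between MCD and C mice after PH, where S100a8 differed by 3.01, the median difference of these 11 genes was 0.10. Single genes of the list differed in either direction. Their median summed level was 230.8 on C arrays (113.7 to 593.2) and 350.6 on MCD arrays (206.1 to 426.1) after PH. In MCD mice after compared with before PH, where S100a8 differed by 3.74, the median difference of these genes was 0.23. These values after PH use arrays on which the set was chosen and are a description. Of 7 hepatocyte genes 2 fell with the diet (26.4% of all genes called), their summed level running from 2813 to 3279 on MCD and from 3787 to 5070 on C arrays. The remaining lists hold few genes and, beside the 26.4% of all genes called for the diet, nothing is read from their counts. Of 4 genes of eosinophils, basophils and mast cells 3 rose, and of 8 of endothelial, stellate and bile duct cells 2 rose. Of 5 T and NK cell genes 2 rose and 1 fell, of 5 platelet genes 1 rose, of 4 B cell genes 1 fell and of 7 erythroid genes 2 fell. How far other cell types contribute to the S100a8 and S100a9 signal was not tested.

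**Figure D5:**
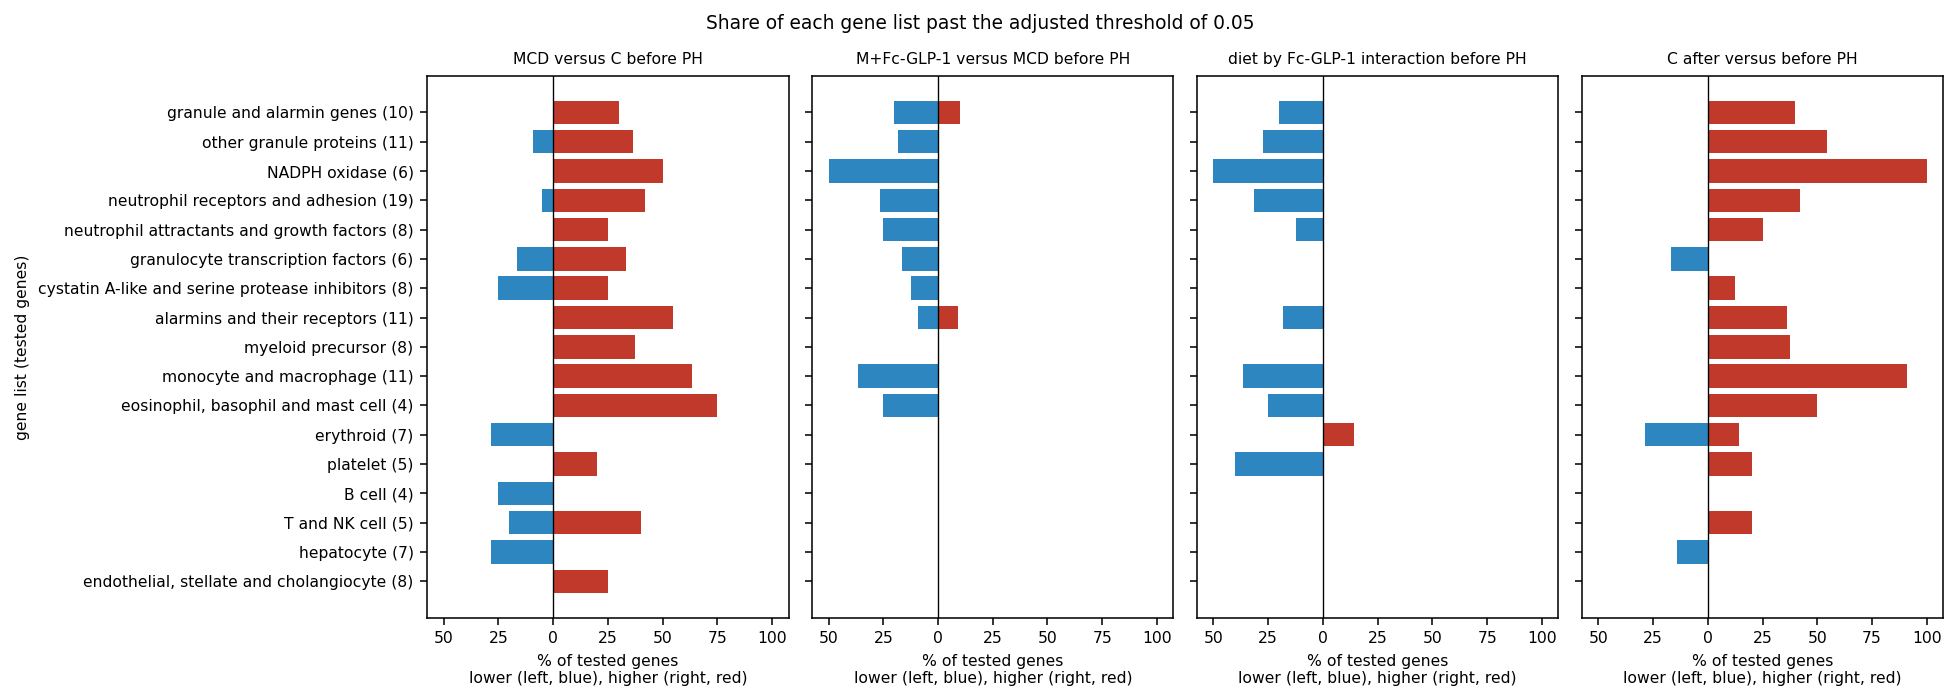
Bars give the percent of tested genes in each list (vertical axis, number tested in brackets) that were lower (left, blue) or higher (right, red) past an adjusted p of 0.05 in 4 comparisons. The granule, NADPH oxidase, receptor and macrophage lists have more genes higher than lower for the MCD diet and for C mice after PH, and only lower ones for the interaction before PH, while granulocyte transcription factors have 1 lower gene after PH and none in the interaction.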

How the data were processed

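Total liver RNA was labelled with Cy3 and hybridized to 1-colour SurePrint G3 mouse arrays. The authors deposited scanner intensity values, which per the file headers were background corrected and detrended within the array, and a table of normalized log2 values, which the authors made with limma (version not given in the sources used here). Set against the scanner values, all 32 columns of that table matched their own array best. Its medians lay between 6.50 and 6.51 before PH and 6.83 and 6.84 after PH, so the table was used within a time point only.

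From the processed signal of each array, log2 values were taken and the array's 75th percentile over 59305 spots other than controls was subtracted. Outlier flags removed spots (426 probes were lost), and repeat spots of a probe were averaged. A probe stayed (28937 did) if some group had it well above background on each of its 4 arrays. A gene's brightest such probe was used. Ngp and Mmp8 passed only through MCD mice after PH, Ltf through C and MCD mice after PH, and Mpo through MCD mice before and after PH. No probe of a member was saturated. Names came from RefSeq accessions where they matched (27656 of 55681 probes), else from the array's design.

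A linear model of the 8 groups was fitted with limma 3.58.1 (R 4.3.3), with Benjamini-Hochberg adjustment over 21073 genes and a threshold of 0.05. There were 8 tested comparisons and 5 described ones. Bounds compare with the lowest signal of probes well above background on each array of the dim group. They allow for that floor only, not for the spread between arrays. The members, the 16 other gene lists and the tests were chosen with earlier results of these data known. The text names the 10 members, up to 3 genes of a list with the largest change past the threshold, and the 5 genes most like S100a8 and Ngp. Some genes that this rule names are not reported here. Steps were tested on simulated data. The alternatives were normexp (offset 50) with quantile normalization, the authors' values, median centring, other sets for the percentile, dim probes left in, a gene's probes averaged, a fit of the groups compared alone, the replicate number as a block, and each array left out in turn. The 75th percentile over probes was chosen after seeing the data. Promoters are those of RefSeq on GRCm38.p6, and probe positions those of the headers on mm9. P-values and SEs rest on 1 estimate of the spread per gene, shared by all 8 groups and moderated by limma. They do not measure the spread of the compared groups alone, which can differ. For Mpo the group SD was 0.13 in C+Fc-GLP-1 mice before PH and 3.05 in C mice after PH. The 4 samples a group limit the precision.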

Additional observations from a re-analysis of the deposited data

Results flagged for a closer look

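S100a8 and S100a9 differed between diets in their response to Fc-GLP-1 before PH, by a tested interaction of -4.43 and -3.31 on the log2 scale. Among 80 sets of 4 arrays (10 genes in 8 groups), 5 held an array far from the other 3, where about 4 are flagged by chance. In M+Fc-GLP-1 mice after PH, replicate 3 was that array for S100a8, with 2.70 against -0.06 for the next (gap over range 0.873), and for Camp, with 2.06 against -1.70 (0.864). Camp was flagged in C mice before PH for replicate 1 (0.849) and in C+Fc-GLP-1 mice before PH for replicate 4 (0.912). Retnlg was flagged in MCD mice after PH for replicate 4, with 1.45 against 0.20 (0.899).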

How the results depend on the processing

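S100a8 and S100a9 kept their direction and their side of the threshold for MCD versus C before PH, M+Fc-GLP-1 versus MCD before PH and C after versus before PH under every alternative run; in the interaction, S100a8 was lost with normexp and S100a9 without MCD replicate 1. None of the results recomputed changed direction. With normexp and quantile normalization, 1 member passed in the interaction before PH in place of 2, and 1 in place of 0 for C+Fc-GLP-1 after versus before PH. With the authors' normalized values 5 members in place of 3 passed for MCD versus C before PH, Ltf and Ngp being added. For C after versus before PH, 2 members in place of 4 passed with no filter on dim probes and in a fit of only the groups compared. Leaving out an array in turn gave 2 to 3 members for MCD versus C and for M+Fc-GLP-1 versus MCD before PH, 1 to 2 for the interaction, 2 to 4 for C after versus before PH and 0 to 0 elsewhere. The cause of these changes was not tested. The replicate numbers showed no pairing in these values. Same-numbered arrays of different groups had a mean residual correlation of 0.02, and in no comparison were all 4 pairs over 0.1. That cannot tell if a mouse gave tissue at both times, since the time points were on different slides. With the replicate number as a block, 2 members passed for MCD versus C before PH (Mpo at adjusted p = 0.056 in limma) and 3 for C after versus before PH (Mpo at 0.0505), and the other counts stayed at 3, 2, 0, 0, 0 and 0. Median centring moved the median of all genes from -0.13 to 0.24 for MCD versus C before PH and from 0.15 to -0.47 for the interaction. Of all genes past the threshold, the share that was higher went with it from 41.4% to 76.9% and from 58.3% to 5.81%. The interaction called 1296 genes in all, 531 with normexp, 669 with the authors' values and 2564 with median centring. After PH, M+Fc-GLP-1 mice differed less from MCD mice with normexp for Ltf (-3.01), Mmp8 (-0.89) and Mpo (-2.80), and with the authors' values for Ltf (-3.21) and Mmp8 (-1.08). Signals near background limit Ngp, Ltf, Mpo and Mmp8 in most groups before PH.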
